A study of Mus musculus with 12 samples.

Results

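The kidneys without toxin were 3 whole-kidney libraries of Pod-TRECK mice that had received no treatment, which are 3 of the 12 libraries of the series and were chosen by their label alone. TRECK stands for toxin receptor-mediated cell knockout, in which a transgene gives a chosen cell type a receptor for diphtheria toxin; the promoter and the receptor are not given in the labels used here. The other 9 mice received 100 ng of diphtheria toxin intraperitoneally, and their kidneys, taken after 5, 14 or 21 days, enter no value here. RNA with a poly(A) tail was sequenced as paired ends, the design text calls the 3 mice biological replicates, and all libraries carry 1 batch number. Age, sex and the hour of collection are not given in the labels used here.

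The kidney filters plasma in the glomerulus, where podocytes, endothelium and a shared basement membrane form the filter. The filtrate then passes the proximal tubule, the loop of Henle with its thick ascending limb, the distal convoluted tubule, the connecting tubule and the collecting duct, whose principal and intercalated cells set the final water, sodium and acid content of urine. The proximal tubule makes up most of the cortex, recovers most of the filtered solutes and depends on mitochondria for its ATP.

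Counts per gene were read on 2 scales. CPM divides a count by all counts of the library, times 1000000, and favours long genes. Counts per kilobase, scaled so that each library sums to 1000000 (TPM), also divide by the gene length in the deposited table and are the scale used wherever genes are compared with each other. The 3 libraries held 42222969, 42654903 and 40426124 counts on 56722 listed genes. Of these genes, 14479 reached a mean of 1 TPM, here the limit for a detected gene, and 28203 (49.7%) had no count in any of the 3 libraries. A count of 0 allows up to 3 counts of a library, which is 0.0711, 0.0703 and 0.0742 CPM in controls 1, 2 and 3. The reads carry no molecular identifiers, so such limits cover counting error only. Control 2 had the highest summed levels of adipocyte, red blood cell and urothelium markers, whose values are given below with and without it.

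The 3 genes with most counts were mitochondrial. The mitochondrial genome encodes 13 subunits of the respiratory chain and ATP synthase, 2 ribosomal RNAs and 22 transfer RNAs, and its 37 genes held 23.7%, 22.8% and 22.4% of the counts in controls 1, 2 and 3. The gene with most counts, mt-Atp8 (a subunit of ATP synthase), had 39626, 38058 and 38327 CPM. It was followed by mt-Co1, the catalytic subunit of cytochrome c oxidase, at 39594, 36796 and 37689.5 CPM, and by mt-Atp6, the ATP synthase subunit that forms the proton path, at 37234, 35770.4 and 36080.2 CPM. All 3 were highest in control 1. Per kilobase the order of these genes changed, and it depends on the listed lengths. The table gives mt-Atp8 a length of 2821 bases although its listed coordinates span 204. For mt-Atp6 it gives 1464 bases against 681, and for mt-Co1 1611 against 1545. Which bases beyond these coordinates were counted is not given, so the counts of mt-Atp8 and mt-Atp6 cannot be read as those of the genes alone. Genes listed as longer than their coordinates held 18.7% ± 0.464 of all counts. mt-Atp8 then stood at 24774, 24012 and 24505 TPM, below mt-Atp6 at 44856, 43487 and 44450.5 TPM and mt-Co1 at 43346, 40651 and 42196 TPM. mt-Nd6, the only protein gene on the light strand, had 382, 388 and 341 TPM, far below the other 12 protein genes, of which the lowest, mt-Nd5, had 8327, 7422 and 7704 TPM. The large ribosomal RNA mt-Rnr2 differed more between the libraries than these protein genes, with 2778, 5411 and 3489.9 TPM and its highest value in control 2.

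A stretch of chromosome 1 that carries a nuclear copy of part of the mitochondrial genome held a further 7.98% ± 0.212 (SD, n = 3) of the counts on 7 pseudogenes. The pseudogene Gm10925 had 830128, 786276 and 770471 counts in controls 1, 2 and 3, and Gm28437 had 721662, 759975 and 676513 counts. The mitochondrial cytochrome oxidase gene mt-Co3 had 751158, 742913 and 683621 counts, so these copies were listed at the level of true mitochondrial genes. Reads from near-identical copies cannot be assigned with certainty, and how the counting treated such reads is not given in the sources used here. Mitochondrial genome and copies together held 30.9% ± 0.893 of the counts and 54.9% ± 0.984 of the TPM. The nuclear protein-coding genes held 36.4% ± 0.702 of the TPM, so their levels would be 2.75 times higher if only they were summed.

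**Figure D1:**
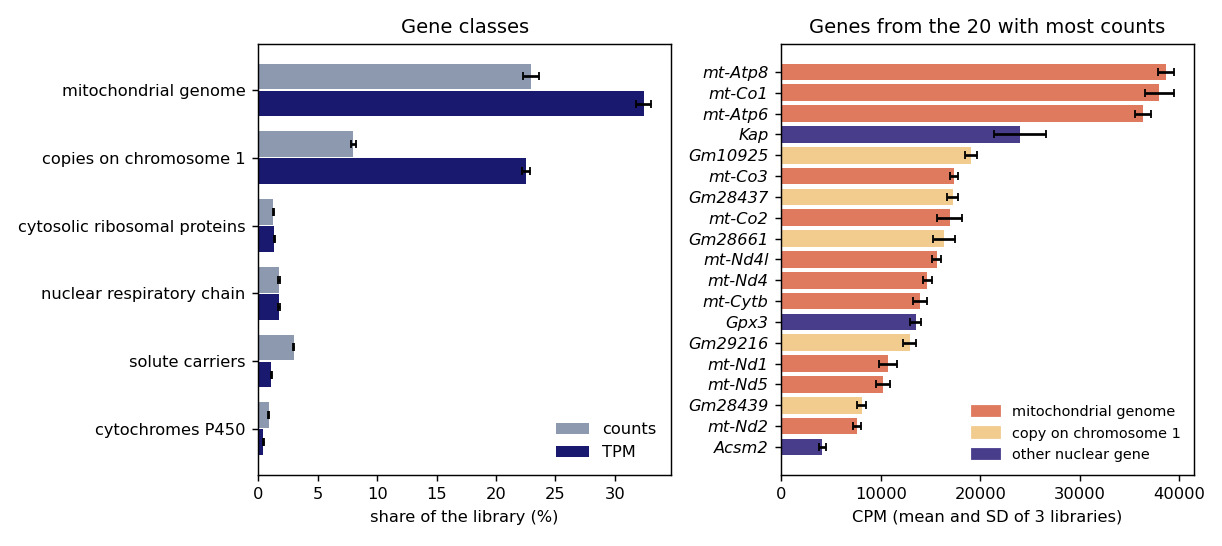
Left, share of counts (light bars) and of TPM (dark bars) held by gene classes; right, genes from the 20 with most counts in CPM, not all of which are shown, coloured by origin. Bars are means of the 3 control libraries with SD, and mitochondrial genes and their copies on chromosome 1 fill most of the right panel, with Kap and Gpx3 the highest other genes.

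Kap was the most abundant nuclear gene by either scale. It encodes kidney androgen-regulated protein, a secreted product of the mouse proximal tubule known for its response to androgen and named for it. Kap (ENSMUSG00000032758, chromosome 6, 133826814 to 133830725, GRCm39) had 1011668, 1137152 and 864456 counts, or 59770.5, 67113 and 54552 TPM. Control 2 was highest and control 3 lowest, and the gene took 2.40%, 2.67% and 2.14% of all counts. Gpx3, the secreted glutathione peroxidase of plasma, followed with 12654, 13113 and 14053 TPM and was highest in control 3. The level of Kap was 4.57 ± 0.631 times that of Gpx3 (SD, n = 3), and no other nuclear protein-coding gene reached 5000 TPM.

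The window around the start of Kap is shown because this single gene outweighs all others of the nucleus. It holds the TATA box letters TATAAA (capitals), searched on the strand of the gene and starting -31 bases from the first transcribed base. The window runs from 100 bases before to 20 bases after that base (RefSeq, GRCm38.p6, chr6:133853648-133853767, minus strand).
Kap: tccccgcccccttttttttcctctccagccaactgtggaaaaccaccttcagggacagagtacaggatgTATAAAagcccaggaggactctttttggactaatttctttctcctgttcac
Among 16789 nuclear protein-coding genes with a RefSeq window, 3.09% held TATAAA starting 40 to 20 bases before the first base. The share was 4.50% of 400 genes at 100 to 1000 TPM, 1.35% of 3262 genes at 10 to 100 TPM and 6.62% of 3522 genes without a count. The share was thus higher among abundant genes and among genes without a count than in between, and a match is a description of the letters, not of a working site.

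Below these 2 genes the nuclear profile was flatter. 18 nuclear protein-coding genes reached 1000 TPM, 524 lay from 100 to 1000 TPM, 4096 from 10 to 100 TPM and 6952 from 1 to 10 TPM. Eef1a1, the elongation factor that brings transfer RNA to the ribosome, had 2188, 2165 and 2198 TPM. Eef1a1 was nearly equal in the 3 libraries, while S100g, the calcium-binding calbindin of the distal nephron, varied more at 1566, 1458 and 1709 TPM. Of the 2 chains of ferritin, which stores iron, the light chain Ftl1 had 1467, 1484 and 1549 TPM and the heavy chain Fth1 1137, 1136 and 1137 TPM. Ass1, which makes argininosuccinate for arginine synthesis, had 1204, 1395 and 1340.3 TPM and was lowest in control 1. Klk1, a kinin-releasing kallikrein of the connecting tubule, had 1289, 978 and 1321 TPM and was lowest in control 2. The 50 genes with most counts took 40.7% ± 0.890 of all counts, whereas the 50 highest outside the mitochondrial genes and their copies took 18.0% ± 0.495 of the remaining counts. The 171 genes with most counts held 50% of all counts.

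**Figure D2:**
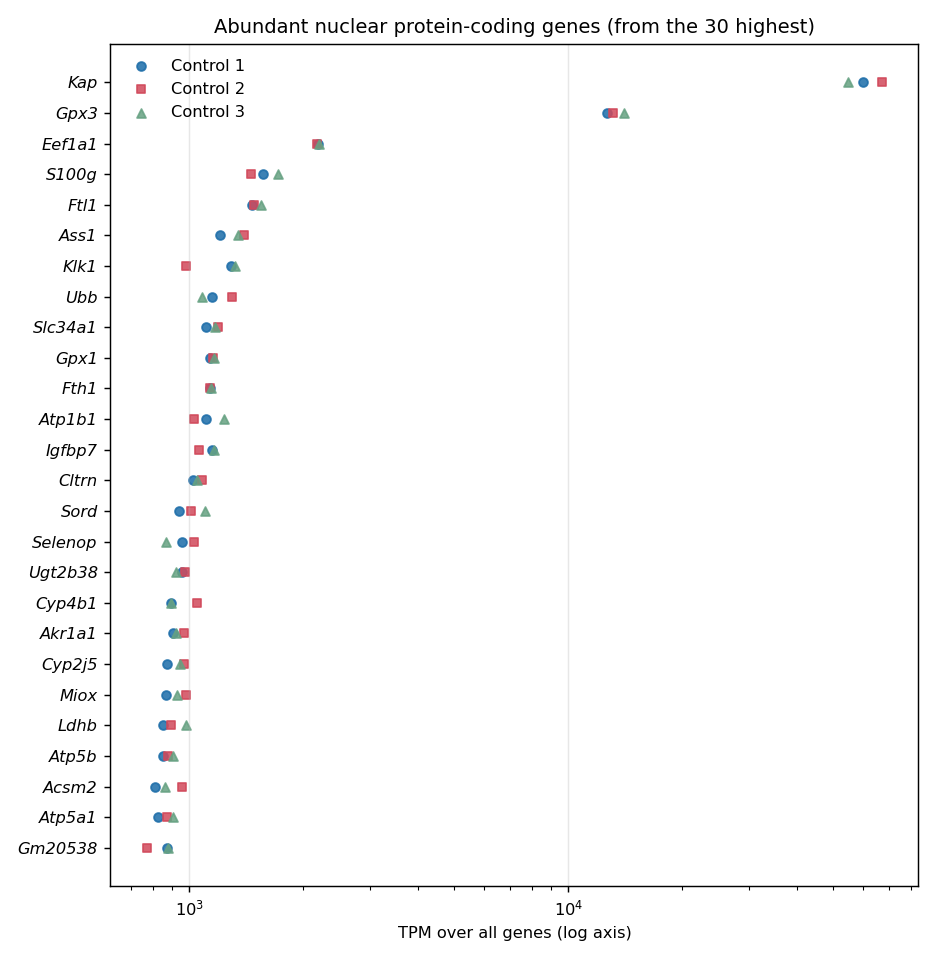
TPM of nuclear protein-coding genes from the 30 with the highest mean, not all of which are shown, on a log axis, with 1 symbol for each of the 3 control libraries. Kap lies from 54552 to 67113 TPM, Gpx3 near 13273 TPM, and the other genes shown form a dense band from Eef1a1 at 2184 TPM downwards in which the symbols of a gene lie close together.

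Ubb, a ubiquitin gene, had 1149.8, 1295 and 1081 TPM and was highest in control 2. Cltrn (collectrin), which brings amino acid carriers to the brush border, had 1024, 1077 and 1046 TPM. Igfbp7, a secreted binding protein of insulin-like growth factors, had 1144, 1059.5 and 1161 TPM, and Selenop, which carries selenium in plasma, had 955, 1026 and 869.9 TPM. Sord, which turns sorbitol into fructose, had 940.4, 1013 and 1098 TPM, and Akr1a1, an aldehyde reductase of vitamin C synthesis in mice, had 907, 968 and 921 TPM. Acsm2, a medium-chain acyl-CoA synthetase, had 813, 958 and 863 TPM, although by counts it was the third nuclear gene outside the mitochondrial copies with 3847, 4491 and 3993 CPM. Hspa8, the constitutive heat shock protein, was less even at 637, 1011 and 800.0 TPM and was highest in control 2.

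Division by length moved many genes. Among the 200 genes with most counts, S100g rose furthest, from rank 181 by CPM to rank 32 by TPM, for a length of 506 bases. Srp54a (signal recognition particle) fell furthest, from rank 175 to rank 1643, followed by Nat8f6, an acetyltransferase-like gene, and Fut9, a fucosyltransferase. The thiazide-sensitive cotransporter gene Slc12a3 fell from rank 164 to rank 1032. The deposited length of Slc12a3 is 12751 bases, against 4310 for its longest transcript in GENCODE M21, and the cytochrome P450 gene Cyp2j9 is listed at 39328 bases against 2536. Over 11588 detected nuclear protein-coding genes the median ratio of these lengths was 1.35, and 15.9% had a listed length over 2 times the longest transcript. With the transcript length the TPM of such a gene would be higher by about that factor.

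The 100 highest genes by TPM were of mixed origin. They comprised 55 nuclear protein-coding genes, 18 mitochondrial genes, 7 copies on chromosome 1, 10 other pseudogenes, 5 short genes lying inside a more abundant gene, 3 genes without an Ensembl identifier and 2 others. Gm26377, annotated as a microRNA gene within Eef1a1, was listed at 5517, 5186 and 5895 TPM, and Mir5121, within the ribosomal protein gene Rpl13a, at 1273, 1253 and 1447 TPM. Reads of such short genes cannot be told apart from those of the host. One of the genes without identifier, on chromosome 4 (132823266 to 132828982, GRCm39), held 137895, 153515 and 107458 counts, which ranked it 26 by CPM. Rn18s, the cytoplasmic 18S ribosomal RNA that poly(A) selection removes in large part, still held 1472, 1031 and 1744 CPM and was lowest in control 2.

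Nephron segments were read from lists of marker genes, and in bulk tissue fewer cells of a type and less RNA per cell cannot be told apart. Proximal tubule markers stood highest of the nephron, with a median member at 201 ± 8.26 TPM (SD, n = 3). All 24 of them were above 1 TPM, beside 52.9% of all nuclear protein-coding genes. Connecting tubule markers followed at 126 ± 16.5 TPM, then thick ascending limb at 23.8 ± 0.865, intercalated cell at 17.2 ± 1.75, distal convoluted tubule at 16.9 ± 1.97, thin limb at 16.0 ± 2.12 and principal cell at 15.9 ± 1.70 TPM. The last 4 of these lists overlapped between neighbours in this order. The 2 juxtaglomerular markers, at 23.2 ± 4.69 TPM, overlapped with the thick ascending limb. With the longest GENCODE M21 transcript as length the thick ascending limb median was 44.0 ± 2.50 TPM, 1.85 times this value, and no longer overlapped with the juxtaglomerular median of 20.3 ± 4.19 TPM. The macula densa list, 4 genes of the small cell group that senses tubular salt, had a median of 0.122 ± 0.0214 TPM, and of these genes only Avpr1a, a vasopressin receptor, reached 1 TPM. The lists of endothelium, podocyte and mesangial cell lay below the tubule lists other than the macula densa. Their medians were 9.44 ± 0.564, 5.82 ± 0.474 and 2.98 ± 0.385 TPM. Smooth muscle, fibroblast and macrophage lists, at 4.45 ± 0.498, 4.31 ± 1.08 and 4.14 ± 0.792 TPM, overlapped with each other. The libraries of the proximal tubule, connecting tubule and thick ascending limb lists did not overlap, nor did those of the principal cell, endothelium and podocyte lists. The lists hold different genes and different numbers of them, so the order describes these markers and not the number of cells.

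**Figure D3:**
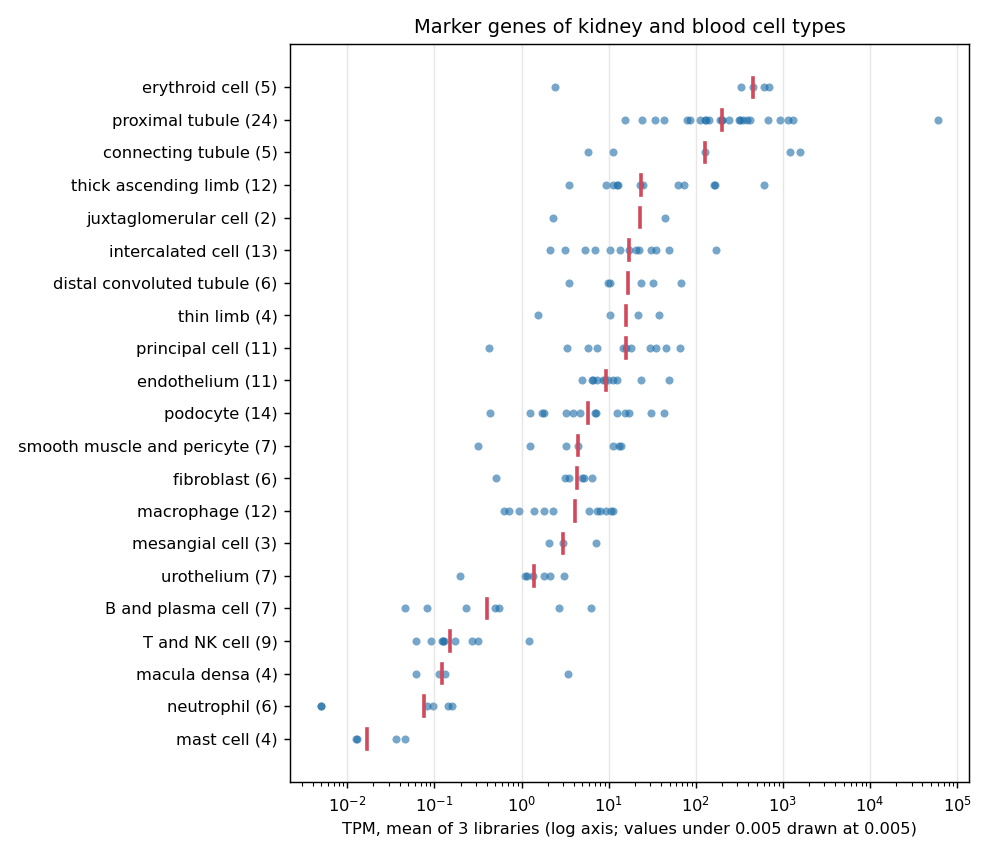
Mean TPM of each marker gene (points, log axis) by cell type list, with the number of markers in brackets and the mean of the 3 library medians as a vertical bar. The proximal tubule points reach from Slc34a3 at 15.4 TPM to Kap at 60478 TPM, while the highest neutrophil point, S100a9, lies at 0.160 TPM and all mast cell points lie lower.

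Among the carriers on the proximal tubule list, those of phosphate, amino acids and urate were highest. Slc34a1, the sodium phosphate cotransporter of the brush border, had 1108, 1193 and 1167 TPM, and its relative Slc34a3 had 15.4, 14.6 and 16.0 TPM, a ratio of 75.4 ± 5.48. Slc5a2, the high-capacity glucose carrier of the early segment, had 199.6, 184 and 217 TPM, which was 8.24 ± 0.0490 times the level of Slc5a1, the high-affinity carrier of the late segment. Slc22a6, the basolateral importer of organic anions, had 224, 252 and 242 TPM, 1.90 ± 0.0916 times the level of its paralogue Slc22a8. Slc22a12, the urate exchanger, had 392, 405 and 373 TPM, and Slc7a13, an amino acid carrier of the late segment, had 415, 447 and 400.4 TPM. The endocytic receptor Lrp2 (megalin) had 131, 152 and 147 TPM and its partner Cubn (cubilin) 30.9, 33.8 and 36.9 TPM. Miox, the first enzyme of inositol breakdown, had 867, 982 and 930.1 TPM. The summed list, 66888, 74762 and 62229 TPM in controls 1, 2 and 3, was 89.0% Kap, and the other 23 markers summed to 7481 ± 315 TPM.

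All 12 markers of the thick ascending limb, all 6 of the distal convoluted tubule and all 5 of the connecting tubule reached 1 TPM. Of all nuclear protein-coding genes 52.9% did. Umod, uromodulin, the most abundant urinary protein made by the thick ascending limb, had 588, 581 and 641 TPM with a listed length of 7429 bases against 2625 for its longest GENCODE M21 transcript. Slc12a1, the furosemide-sensitive cotransporter, had 174, 145 and 177 TPM. Slc12a3, the cotransporter of the distal convoluted tubule, had 62.5, 69.7 and 70.8 TPM, giving a ratio of Slc12a1 to Slc12a3 of 2.46 ± 0.357. This ratio rests on the deposited lengths. With the longest GENCODE M21 transcript as length, Slc12a3 averaged 169 TPM. The Slc12a1 values above keep the deposited length, and the ratio on transcript lengths is not given here. Egf, the precursor of epidermal growth factor made in thick ascending limb and distal convoluted tubule, had 154, 149 and 185 TPM. Of the 12 thick ascending limb markers, 10 were highest in control 3. So were 14 of 20 fatty acid oxidation genes, and the share over all genes was not counted. In the distal convoluted and connecting tubule, Wnk4, a kinase that regulates Slc12a3, had 32.9, 31.2 and 33.9 TPM, and Calb1, the calcium buffer calbindin, had 108, 141 and 129.6 TPM. The calcium channel Trpv5 had 5.28, 5.94 and 6.39 TPM, and the magnesium channel Trpm6 had 2.30, 4.66 and 3.43 TPM and was lowest in control 1. In principal cells, the 3 subunits of the epithelial sodium channel stood at 33.9, 33.1 and 36.9 TPM for Scnn1a, 14.3, 14.1 and 15.3 TPM for Scnn1b and 16.7, 17.5 and 19.9 TPM for Scnn1g. In intercalated cells, the cytosolic carbonic anhydrase Car2 had 164, 151 and 196 TPM, and Slc26a4 (pendrin), the chloride bicarbonate exchanger, had 36.3, 30.4 and 37.3 TPM.

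Subunits of the sodium pump, which drives these carriers, were among the abundant nuclear products. Atp1b1, its beta subunit, had 1107, 1028 and 1236 TPM and was highest in control 3, and Fxyd2, its regulatory gamma subunit, had 551, 542 and 568 TPM. Fxyd4, a regulator of the pump in the collecting duct, had 15.8, 14.2 and 17.6 TPM.

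**Figure D4:**
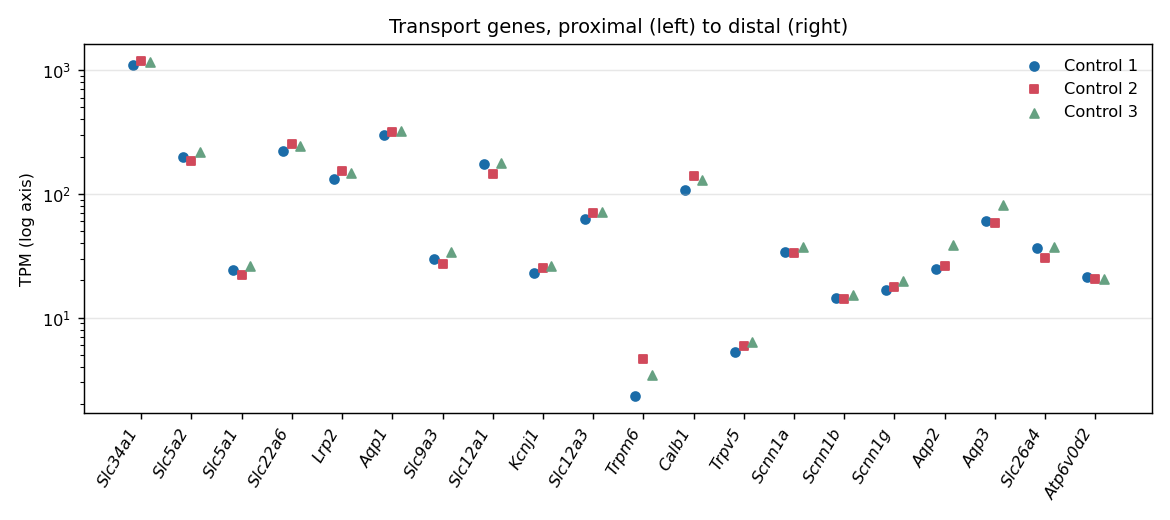
TPM of 20 transport genes on a log axis, ordered by their usual place from proximal tubule to collecting duct, with 1 symbol per control library. Slc34a1 lies highest, Trpm6 and Trpv5 lowest, and the 3 symbols of most genes lie close together, Aqp2 and Trpm6 being wider.

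Water channels differed by segment. Aqp1, of the proximal tubule and thin limb, had 297, 314 and 321 TPM, 10.8 ± 2.17 times the level of Aqp2, the vasopressin-regulated channel, at 24.6, 26.1 and 38.6 TPM. Aqp3, the basolateral channel of principal cells, had 59.9, 57.7 and 81.4 TPM and, like Aqp2, was highest in control 3. Aqp6, of intercalated cells, had 16.6, 15.8 and 19.1 TPM, and Aqp11, an intracellular channel of the proximal tubule, 8.45, 8.59 and 9.46 TPM. Of 12 aquaporins, 7 reached 1 TPM and 2 had no count, beside 52.9% and 21.6% of all nuclear protein-coding genes. The window before Aqp3 is shown as a second gene whose start is preceded by TATAAA (capitals), at -29 (GRCm38.p6, chr4:41098164-41098283, minus strand).
Aqp3: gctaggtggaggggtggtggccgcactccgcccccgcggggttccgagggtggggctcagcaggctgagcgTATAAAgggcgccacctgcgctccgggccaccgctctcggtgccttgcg

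The filter itself was present at low levels in whole kidney. Podocytes hold the slit diaphragm between their foot processes, and 13 of 14 podocyte markers reached 1 TPM, beside 52.9% of all nuclear protein-coding genes. Podxl, the charged coat protein podocalyxin, had 41.6, 41.9 and 46.2 TPM, although endothelium expresses it too, and Npnt, a matrix ligand of integrins, had 27.8, 36.1 and 28.8 TPM. Nphs1 (nephrin), the main strand protein of the slit diaphragm, had 3.87, 3.46 and 4.44 TPM, and Synpo (synaptopodin), an actin-binding protein of foot processes, had 4.41, 4.46 and 5.04 TPM. Wt1, the transcription factor that maintains podocytes, had 1.84, 1.77 and 1.88 TPM. Lmx1b, which regulates slit diaphragm and basement membrane genes, was the only marker under 1 TPM, with 0.487, 0.369 and 0.448 TPM. The summed podocyte level was 146, 151 and 154 TPM, with control 1 lowest and control 3 highest, whereas the median over the 14 markers was 6.32, 5.37 and 5.76 TPM, with control 1 highest and control 2 lowest. Control 2 was lowest for 10 of the 14 markers and control 3 highest for 8. Among 46 listed nuclear receptors with a count, control 2 was lowest for 26 and control 3 highest for 25. Of the basement membrane chains, Col4a1 had 31.0, 31.1 and 28.1 TPM and Col4a3, a chain of the mature glomerular network, 25.1, 22.1 and 25.5 TPM. Endothelial markers were led by Plvap, the diaphragm protein of fenestrae, at 53.7, 47.0 and 48.5 TPM, and all 11 were above 1 TPM.

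The target of the toxin was abundant in these unexposed kidneys. Diphtheria toxin enters cells by binding heparin-binding EGF-like growth factor and stops protein synthesis by modifying elongation factor 2 on diphthamide, a residue made by the Dph enzymes; the mouse form of the receptor binds the toxin poorly. Eef2 had 583, 574 and 605 TPM. Mouse Hbegf had 5.30, 4.13 and 5.86 TPM, and a transgenic receptor was not analysed here. The 6 listed Dph genes were all detected, beside 52.9% of all nuclear protein-coding genes. They ranged from Dph5 at 1.14, 0.993 and 1.04 TPM to Dph3 at 12.7, 11.4 and 12.5 TPM.

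Pck1 and the leading genes of fat oxidation stood above the hexokinases Hk1 and Hk2. Pck1, which commits substrate to gluconeogenesis, had 603, 597 and 806 TPM and was 42.0 ± 3.95 times as high as Hk1, the hexokinase of glycolysis. Ldhb, the lactate dehydrogenase subunit of oxidative tissues, had 854, 894 and 982 TPM, 4.64 ± 0.297 times the level of Ldha. Hk2, a second hexokinase, was low at 0.174, 0.501 and 0.186 TPM. All 20 genes of fatty acid oxidation were detected, beside 52.9% of all nuclear protein-coding genes, with a median of 67.8 ± 3.99 TPM. Slc27a2, a fatty acid importer and acyl-CoA synthetase, led them at 554, 576 and 585 TPM, and Ehhadh, a bifunctional enzyme of peroxisomal oxidation, had 287, 257 and 235 TPM. Fabp1, the fatty acid binding protein of liver, was lowest at 1.28, 0.679 and 2.26 TPM, while Fabp3 had 107, 96.8 and 124 TPM. Nuclear subunits of the respiratory chain held 1.74% ± 0.0915 of TPM, with 95 of 105 detected. Gpx1, the cytosolic glutathione peroxidase, had 1135, 1154 and 1161 TPM, so the level of secreted Gpx3 was 11.5 ± 0.505 times that of Gpx1.

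Of 134 cytochrome P450 genes, which oxidise drugs, steroids and fatty acids, 39 were detected and 46 had no count. Over all nuclear protein-coding genes 52.9% were detected and 21.6% had no count, and over all listed genes 25.5% and 49.7%. The 134 were taken by symbol pattern, which can also catch pseudogenes. Of the family, 5 genes gave 75.1% of their TPM. Cyp4b1 led with 895, 1046 and 893 TPM, followed by Cyp2j5, an epoxygenase, at 874, 966 and 945 TPM and Cyp2e1, which oxidises ethanol, at 795, 739.9 and 773 TPM. Among glucuronosyltransferases, 17 of 22 were detected and Ugt2b38 led with 958, 971 and 922 TPM. Of 27 sulfotransferases 5 were detected and 15 had no count, with Sult1d1 highest at 146, 146 and 191 TPM. The Ugt1a genes share their last exons, and Ugt1a9, at 179, 202 and 195 TPM, and Ugt1a5, at 179, 202 and 194 TPM, were listed at nearly equal values, so their reads cannot be told apart. All 27 glutathione S-transferases had counts and 22 were detected, led by Gstp2 at 313, 339 and 325 TPM. Of 399 solute carriers, 264 were detected and 27 had no count; together they held 2.96% ± 0.0491 of counts.

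A minority of the claudin and potassium channel genes was detected, whereas most chloride channel and proton pump genes were. Detected were 52.9% of all nuclear protein-coding genes and 25.5% of all listed genes. Of 35 claudins, the strands of tight junctions, 13 were detected. Cldn2, the sodium-selective pore of the proximal tubule, had 80.7, 99.7 and 92.5 TPM, and Cldn10, of proximal tubule and thick limb, had 74.4, 76.4 and 69.4 TPM. Of 98 potassium channel genes 14 were detected. Kcnj16, a basolateral channel subunit of the distal nephron, had 191, 205 and 220.0 TPM, and Kcnj15 141, 148 and 154 TPM, whereas Kcnj1 (ROMK), the secretory channel of thick limb and collecting duct, had 23.0, 25.3 and 26.0 TPM. Of 9 chloride channel genes 8 were detected, among them Clcn5, the endosomal exchanger of the proximal tubule, at 14.4, 14.9 and 15.8 TPM. Of 25 genes named as subunits of the vacuolar proton pump, 21 were detected. The common subunit Atp6v1a had 119, 114 and 129.9 TPM, while Atp6v0d2, enriched in intercalated cells, had 21.1, 20.4 and 20.4 TPM. Of the efflux pumps, Abcg2, which exports urate and drugs, had 62.2, 66.7 and 62.3 TPM and Abcc2, which exports conjugates, 31.1, 29.4 and 34.2 TPM.

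Genes of the ribosomes were detected almost without exception, beside 52.9% of all nuclear protein-coding genes. Of 89 cytosolic ribosomal protein genes 87 were detected, and together they held 1.33% ± 0.0552 of TPM. Rplp1, an acidic protein of the ribosomal stalk, led with 585, 567 and 700.1 TPM. Of 84 mitochondrial ribosomal protein genes 83 were detected, with Mrpl12 highest at 105, 114 and 121 TPM. In the nuclear part of ATP synthase, Atp5b, its catalytic beta subunit, had 853, 877 and 907 TPM and Atp5a1, the alpha subunit, 827, 870.5 and 907 TPM. Among antioxidant enzymes, Prdx5 had 586, 561 and 638 TPM and catalase (Cat), which removes hydrogen peroxide, had 480.4, 462 and 471 TPM. Of the metallothioneins, which bind zinc and copper, Mt1 had 104, 72.7 and 99.2 TPM and Mt2 96.6, 60.7 and 88.4 TPM. Both were lowest in control 2. Of the long noncoding RNAs, nuclear Malat1 had 136, 112 and 114 TPM and Norad, which binds Pumilio proteins, 51.0, 51.1 and 55.2 TPM.

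Kl, the FGF23 co-receptor klotho, had 94.1, 109 and 103 TPM. Ren1, renin, the enzyme that juxtaglomerular cells release into blood, had 54.2, 41.8 and 36.3 TPM and was highest in control 1. Epo, erythropoietin, made by few interstitial cells, had 4.24, 3.86 and 4.33 TPM. Of the vitamin D enzymes, Cyp24a1, which inactivates the hormone, had 35.0, 24.7 and 35.5 TPM, and Cyp27b1, which makes it, had 1.54, 2.57 and 1.56 TPM. Control 2 was lowest for the former and highest for the latter. Of 40 hormone receptors, 27 were detected and 1, the melanocortin receptor Mc1r, had no count, beside 52.9% of all nuclear protein-coding genes detected. Pth1r, the parathyroid hormone receptor, had 112, 126 and 121 TPM, Ghr, the growth hormone receptor, 119.6, 115 and 122 TPM and Vdr, the vitamin D receptor, 47.8, 51.9 and 49.6 TPM. Of the angiotensin receptors, Agtr1a had 21.2, 20.5 and 21.6 TPM while Agtr1b and Agtr2 were at 0.0134 and 0.0215 TPM on average.

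Of the listed transcription factors Hnf4a was the most abundant. This nuclear receptor, which maintains proximal tubule identity, had 181, 214 and 201 TPM, 51.9 ± 10.1 times the level of its paralogue Hnf4g. Maf had 45.5, 45.0 and 51.8 TPM, and Tfcp2l1, a factor of the collecting duct, 31.5, 30.6 and 37.8 TPM. Foxi1, the master factor of intercalated cells, had 13.1, 9.65 and 18.3 TPM. Of 34 listed factors 29 were detected, and Six2, which marks nephron progenitors of the embryo, had no count, while Eya1 and Cited1 were under 0.1 TPM. Of 49 nuclear receptors 34 were detected, and Nr1h5, Nr2e1 and Nr5a1, the last a factor of adrenal and gonad, had no count. Among all nuclear protein-coding genes 52.9% were detected. Of 39 Hox genes, which pattern the body axis, 25 were detected, with Hoxd8 highest at 38.3, 41.3 and 42.5 TPM.

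Of 15 genes known to rise in injured tubules, 9 reached 1 TPM, against 52.9% of all nuclear protein-coding genes, led by genes that healthy tubules also express. Havcr1 (KIM-1), which damaged proximal tubules express, had 0.441, 0.267 and 0.328 TPM, and Lcn2 (NGAL), a second urinary injury marker, had 1.36, 0.925 and 0.963 TPM. Spp1, osteopontin, which the healthy distal nephron also makes, had 376, 335 and 411 TPM, and Krt8, a keratin of simple epithelium, 55.4, 50.4 and 59.7 TPM. Sox9, a factor of repairing tubules, had 0.111, 0.161 and 0.183 TPM. Of 10 cell cycle genes 3 reached 1 TPM, and Mki67 had 0.897, 0.619 and 0.441 TPM. Control 1 was highest for 8 of these 10. The immediate early genes, which respond within minutes to stress and handling, were highest in control 1 for 12 of 15, with Egr1 at 9.60, 5.06 and 5.76 TPM. By comparison, control 1 was highest for 12 of 46 listed nuclear receptors with a count. The share over all genes was not counted, and an effect of handling was not tested.

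All 3 kidneys carried transcripts of the Y chromosome. Ddx3y, an RNA helicase of the Y chromosome, had 17.9, 17.3 and 18.6 TPM and Eif2s3y, a translation initiation factor gene, 9.83, 10.2 and 9.72 TPM. Xist, the RNA that silences an X chromosome in females, had 2, 1 and 3 counts. Kap and 9 other genes known to differ between male and female mouse kidney were all detected, beside 52.9% of all nuclear protein-coding genes. Cyp4a12a, a male-biased fatty acid hydroxylase, had 52.6, 74.7 and 22.1 TPM and was highest in control 2 and lowest in control 3. Slc7a12, an amino acid carrier gene known as female-biased, had 4.91, 16.4 and 12.9 TPM and was lowest in control 1.

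Blood and immune transcripts were few apart from globin. Hba-a2, an alpha globin, had 624, 959 and 499 TPM, and all 5 erythroid markers were highest in control 2. Their summed level was 1793, 2917 and 1554 TPM, a mean of 2088 TPM with and 1673 TPM without control 2. Macrophage markers, which resident cells express in every kidney, summed to 70.0, 59.9 and 51.4 TPM, with Csf1r, their growth factor receptor, at 12.4, 11.5 and 10.2 TPM. Control 1 was highest for 11 of these 12 markers, beside 12 of 46 listed nuclear receptors with a count. Of 9 T and NK cell markers 1 reached 1 TPM, of 7 B and plasma cell markers 2, of 6 neutrophil markers 0, and of 4 mast cell markers 0. Among all nuclear protein-coding genes 52.9% did. The B and plasma cell markers summed to 10.9, 16.3 and 3.62 TPM in controls 1, 2 and 3. The neutrophil genes Mpo (myeloperoxidase) and Ly6g had no count.

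The 3 libraries were close to each other over most genes. Over 11040 genes with at least 5 CPM, the highest library was a median of 1.13 times the lowest, and 87 genes differed by 2 times or more. Over detected genes the median coefficient of variation of TPM was 7.73%, and 5.50% of them exceeded 30%. Genes from 1 to 2 TPM rested on a median of 110 counts per library, and counting alone gives them a coefficient of variation of 9.59% against the observed 14.0%. Genes from 100 to 200 TPM had 6.10%, where counting alone gives 1.15%. The observed values also hold the differences between 3 mice.

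Of the 87 genes that differed by 2 times or more, 47 were highest in control 2. Ucp1, the uncoupling protein of brown fat, differed most, with 24, 858 and 125 counts and 0.613, 21.9 and 3.41 TPM. Adipoq, the adipocyte hormone adiponectin, had 4.87, 16.0 and 2.00 TPM, Cfd, the adipocyte protease adipsin, 52.7, 126 and 16.4 TPM, and Cidec, a lipid droplet protein, 3.31, 11.3 and 1.56 TPM. Without control 2 the means were 2.01 TPM for Ucp1, 3.44 TPM for Adipoq, 34.6 TPM for Cfd and 2.44 TPM for Cidec, against 8.63, 7.61, 65.1 and 5.39 TPM with it. Adipocyte markers, listed as a tissue that adjoins the kidney, were highest in control 2 for 7 of 7 and summed to 131, 269 and 56.6 TPM, with Lep (leptin) at 0 in control 3. Urothelial markers, of the renal pelvis, were highest in control 2 for 6 of 7 and summed to 7.45, 15.7 and 9.36 TPM. The part of adjoining tissue in the other levels was not tested. Over all 3 controls the adipocyte sum averaged 152 TPM, against 93.9 TPM without control 2 and 200 TPM without control 3, the lowest. The urothelial sum averaged 10.8 TPM with and 8.40 TPM without it. Skeletal muscle markers summed to under 1 TPM in every control. Of the adrenal markers, Cyp11b2 and Cyp21a1, steroid hydroxylases of the adrenal cortex, had no count, whereas Hsd3b1, a steroid dehydrogenase of adrenal and gonad, had 17.2, 12.7 and 15.2 TPM. The related gene Hsd3b4 averaged 641 TPM, and whether Hsd3b1 shares reads with it was not tested.

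**Figure D5:**
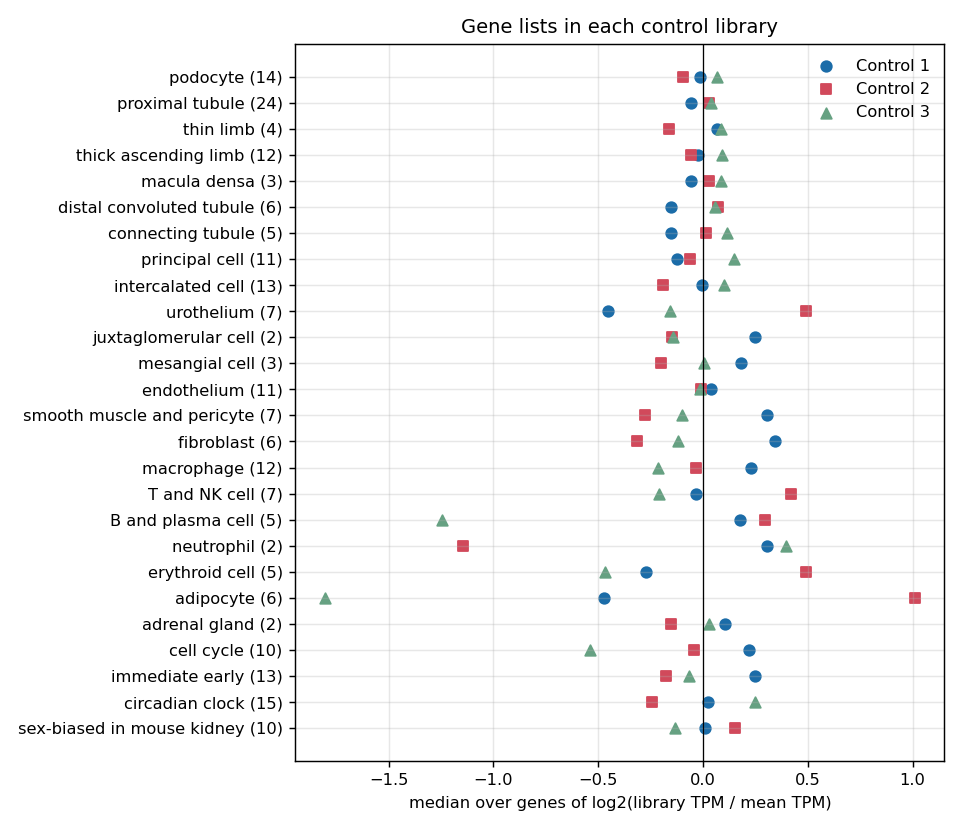
For each gene list, the median over its genes (number in brackets, those at 0.1 TPM or more) of the log2 ratio of a library's TPM to the mean of the 3 libraries. Nephron lists lie close to 0, the farthest being intercalated cell at -0.190 in control 2, whereas the adipocyte list spreads from -1.80 in control 3 to 1.01 in control 2.

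The other wide genes were of several kinds. Fibroblast and smooth muscle lists leaned to control 1, where 6 of 6 and 6 of 7 members were highest. Of 15 clock genes 11 were highest in control 3, as were 14 of 20 fatty acid oxidation genes and 14 of 18 glucose handling genes. The count is thus not particular to the clock list. How often each control was highest over all genes was not counted. Dbp, a clock output factor, had 52.3, 32.8 and 62.8 TPM, lowest in control 2, and Arntl, the activator of the clock with the opposite phase, had 0.239, 0.760 and 0.213 TPM, highest in control 2. The hour of collection could not be compared, since the labels used here do not give it. The predicted gene Gm3776 had 2.00, 30.8 and 9.38 TPM, with control 1 lowest and control 2 highest. Erdr1, in the region that X and Y chromosome share, had 16.4, 1.97 and 2.83 TPM, and Gm47283, listed on the Y chromosome, had 28.7, 3.13 and 6.07 TPM. Both were highest in control 1, and copies on the 2 chromosomes make their counts uncertain. Cyp4a32, a fatty acid hydroxylase gene from a cluster of close copies, had 38.1, 7.15 and 8.80 TPM, also highest in control 1. Without control 1 these genes averaged 2.40, 4.60 and 7.97 TPM, against 7.06, 12.6 and 18.0 TPM with it. Without control 2, Gm3776 averaged 5.69 TPM against 14.0 TPM with it. Igkc, the immunoglobulin kappa constant region, had 6.12, 11.1 and 1.34 TPM and was lowest in control 3, with a mean of 6.20 TPM and of 3.73 TPM without control 2.

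Whole gene families were absent or nearly so. Of 1412 olfactory receptor genes 1372 (97.2%) had no count, and 1, Olfr1033, reached 1 TPM with 0.968, 1.38 and 1.21 TPM. Olfr558 had 0.604, 0.549 and 0.513 TPM. Of 356 vomeronasal receptors 328 had no count and 0 reached 1 TPM. Of 43 beta-defensins, antimicrobial peptides of epithelium, 30 had no count, yet Defb1 had 181, 244 and 219.7 TPM and Defb29 had 86.3, 90.9 and 75.0 TPM. None of 22 major urinary protein genes, which the liver makes, reached 1 TPM, and the family held 26 counts in all 3 libraries together. In all, 4725 of 21915 nuclear protein-coding genes (21.6%) had no count.

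Of 65 markers of 10 other organs, 25 had no count, 43 were under 0.1 TPM with these included, and 11 reached 1 TPM, 7 of them among the 14 liver markers. Over all nuclear protein-coding genes, 21.6% had no count and 52.9% reached 1 TPM. Insulin (Ins1), glucagon (Gcg), surfactant protein C (Sftpc), growth hormone (Gh) and fetuin (Ahsg) had no count. Among intestinal markers, Vil1, the brush border protein villin, had 67.4, 75.4 and 75.7 TPM while Fabp2 and Cdx2 had no count. Among liver markers, Ttr (transthyretin) had 59.9, 44.3 and 49.0 TPM and Serpina1a (antitrypsin) 43.2, 35.6 and 37.1 TPM, the latter from a family of near-identical copies. Alb (albumin) had 4.48, 4.04 and 4.38 TPM. Among pancreatic markers, Cela1, an elastase also found outside the pancreas, had 30.7, 33.7 and 34.2 TPM, while Prss2, Cpa1 and Pnlip had no count.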

How the data were processed

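Poly(A)-selected RNA of 3 untreated kidneys was read from the deposited table of counts per gene. The authors made these counts with fastp 0.20.0 and featureCounts (version not given) on GRCm39, per the submitters' processing notes. Not given in the sources used here: which aligner and gene annotation were used, and whether strand and multiple matches counted. The deposited table also holds a length per gene in bases, which the authors' file does not define. Each library holds 40426124 to 42654903 counts, and at 1 to 2 TPM the counting error alone is near 9.59%.

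CPM and TPM were computed with Python 3.11.15, pandas 2.3.3, numpy 2.4.6 and scipy 1.17.1, tested on simulated data, and drawn with matplotlib 3.10.9. TMM factors came from edgeR 4.0.16 in R 4.3.3. Biotypes and transcript lengths came from GENCODE M21 through Ensembl identifiers, and promoters from RefSeq (GRCm38.p6). The 52 gene lists hold 527 genes, of which 525 matched by symbol, and 38 families were read from symbol patterns, which also catch a few unrelated names and pseudogenes.

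No group was compared and no test was made. Genes were named by rule: the 30 highest by CPM and the 30 highest nuclear genes by TPM, mitochondrial genes among the 10 highest, the 3 highest members of each list and any under 0.1 TPM or at 0, the 5 highest of each family, the 10 that rose and the 10 that fell most in rank among the 200 highest by CPM, and the 15 with the widest ratio between libraries at 5 CPM or more. The rule bounds the choice, and only part of these genes is printed. Other list members are named for their role and were chosen after their values were seen. The members and lists were chosen with earlier results of these data known. Alternatives changed the unit, the gene length, the denominator, the low-count limit and the scaling, or left out a library. The transcript length, the protein-coding denominator and the counts with the copies or without Kap were added after seeing the data. Toxin-treated kidneys were left out, and some genes that the rule selects are not reported here.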

Additional observations from a re-analysis of the deposited data

How the results depend on the processing

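The number of genes detected, 14479, ranged from 14405 to 17240 over its alternatives, and the genes without a count, 28203, from 29238 to 32504. The mitochondrial genome share of counts was 22.9%, 32.4% by counts per kilobase and 30.9% with the copies on chromosome 1. The share of top 50 genes was 40.7%, 66.8% by TPM and 25.5% without mitochondrial genes. The smallest set of genes with 50% of counts numbered 171, 14 by TPM, 547 without mitochondrial genes and 771 without the copies as well. The proximal tubule summed level, 67960 TPM, was 42365 in CPM, 100579 TPM without mitochondrial genes, 61356 TPM with the longest GENCODE M21 transcript as length, 186697 TPM among nuclear protein-coding genes and 7481 TPM without Kap. The median spread between libraries, 7.73%, was 8.72% over genes with at least 10 counts in each library, 7.38% with TMM scaling and 6.02% to 6.71% with one library left out, where only 2 libraries remain.

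Levels in TPM depend on the denominator and the deposited length. Over 863 genes of the lists, families and rankings at 1 TPM or more, the nuclear protein-coding denominator raised every level 2.71 to 2.81 times, and the transcript length moved 191 genes over 1.5 times. The 863 include genes picked for the widest ratio between libraries. Leaving out 1 of 3 libraries can raise a mean at most 1.5 times, so only falls could pass this bound. Leaving out control 1, 2 or 3 lowered 8, 22 and 6 genes past it. Of those described here, Erdr1, Gm47283 and Cyp4a32 moved without control 1, and Ucp1, Adipoq, Cfd, Cidec, Gm3776 and Igkc without control 2. No paired analysis was made, since the 3 controls form 1 group and no groups were compared. With 3 libraries and 1 batch number, spread between mice and between preparations cannot be told apart.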
